A study of Mus musculus with 24 samples.

Results

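The mouse genes followed across splenic monocytes were 8 of the S100 family of calcium-binding proteins: S100a1, S100a4, S100a6, S100a8, S100a9, S100a10, S100a11 and S100a13. They were chosen by name, and 6 of the 8 had a row among the 23930 amplicons of the table; S100a4 and S100a11 had none and were not analysed here. RNA came from Ly6Chi and Ly6Clow monocytes sorted from the spleens of untreated mice on a C57BL/6 background, with 4 libraries in each of 6 groups and 24 in all. The 3 genotypes were WT, Slc29a3-/- and Slc29a3-/- Tlr7-/-. Slc29a3 encodes a nucleoside transporter of the lysosome, and Tlr7 an endosomal receptor for single-stranded RNA, so the comparisons ask what loss of the transporter does in each subset and what remains when TLR7 is lost as well. The study describes a stop codon placed in Slc29a3 and a small deletion in Tlr7, both made with CRISPR/Cas9 and carried by every cell of the animal. WT mice were bought from a supplier, and it is not stated that they were littermates. The age of the mice and whether each library is 1 mouse or a pool were not given in the sources used here, so P values measure only the spread between these libraries. Other lineages had been removed with magnetic beads, and CD11b+ cells lacking NK1.1 and Ly6G were sorted by Ly6C and by FcγRIV, the product of Fcgr4. The sample labels call the cells macrophages.

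S100 proteins are small proteins with paired EF-hand motifs that bind calcium, change shape and then dock onto partner proteins. Most act inside the cell, on annexins, cytoskeletal proteins and enzymes, and some are released and bind receptors on neighboring cells. S100A8 and S100A9, together called calprotectin, are among the most abundant cytosolic proteins of neutrophils and classical monocytes and are used clinically as a measure of myeloid inflammation. S100A10 stays bound to annexin A2, S100A6 binds the calcyclin-binding protein encoded by Cacybp, and S100A13 takes part in the unconventional release of IL-1α and FGF1. Most S100 genes lie side by side in 1 cluster on mouse chromosome 3.

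On the mm10 build (GENCODE vM21), the 6 measured genes were all on chromosome 3. S100a1 (minus strand, 90511034 to 90514392) and S100a13 (plus strand, 90514435 to 90524581) pointed away from each other, S100a6 (plus strand) began at 90612882, and S100a8 (plus strand, 90668978 to 90670035) and S100a9 (minus strand, 90692632 to 90695721) pointed toward each other. S100a10 lay apart at 93555080 to 93564643, beside S100a11. Start sites in RefSeq (GRCm38.p6) were used for sequence, and 7 of the 8 genes had a promoter entry, S100a10 being the exception. The windows of S100a8 and S100a9, from 250 bases before to 30 bases after the annotated start, are shown because these genes carry the largest differences below; capitals mark the letters TATAAA.
S100a8, chr3:90668821-90669100, plus strand: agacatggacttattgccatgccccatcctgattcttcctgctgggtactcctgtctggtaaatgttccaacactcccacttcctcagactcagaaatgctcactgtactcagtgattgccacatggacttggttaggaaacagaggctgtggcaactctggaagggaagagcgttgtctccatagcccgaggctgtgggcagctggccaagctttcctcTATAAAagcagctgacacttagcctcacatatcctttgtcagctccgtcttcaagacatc
S100a9, chr3:90695692-90695971, minus strand: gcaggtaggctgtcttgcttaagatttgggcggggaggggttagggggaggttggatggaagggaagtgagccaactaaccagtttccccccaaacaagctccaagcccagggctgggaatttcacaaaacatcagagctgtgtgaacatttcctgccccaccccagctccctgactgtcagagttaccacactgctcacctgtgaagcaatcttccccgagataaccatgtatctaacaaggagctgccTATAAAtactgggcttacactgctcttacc

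The TATAAA of S100a8 began 30 bases before its RefSeq start, and that of S100a9 began at position 1 of the annotated start. By the GENCODE coordinates S100a8 begins at 90668978, so its TATAAA lies inside that annotated gene. On either strand, TATAAA was found in 13.1% of the 32851 windows of this length in RefSeq. The S100a4 window held it at position -31, and the windows of S100a1, S100a6, S100a11 and S100a13 did not hold it. The other letters below were also searched on either strand, so the shown strand can read their reverse complement. The letters GGAAGT, found at many ETS-family sites, began at -172 in S100a8, where the shown strand reads acttcc, and at -188 in S100a9. They were also in the S100a1, S100a4 and S100a11 windows and in 22.3% of all windows. The C/EBP-type letters TTGCNNAA were found at -236 in S100a9, in none of the other 6 windows and in 10.4% of all. The letters CCAAT were found at -228 in S100a6 alone among the 7, and in 36.1% of all windows. A match is a run of letters and not a binding site. Between the RefSeq starts of the divergent pair S100a1 and S100a13 lay the 104 bases shown next. By the GENCODE coordinates S100a1 reaches to 90514392, so part of this stretch lies inside that annotated gene.
S100a1 to S100a13, chr3:90514331-90514434, plus strand: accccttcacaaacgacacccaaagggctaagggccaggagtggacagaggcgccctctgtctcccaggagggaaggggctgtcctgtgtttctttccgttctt

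Values are reads per 1000000 of 1 short amplicon per gene (RPM), so they can be compared between libraries for 1 gene but do not order genes by transcript number. Depth, inferred from the step between low values, was 12311031 to 14572210 reads per library, and 3 reads correspond to 0.206 to 0.244 RPM. WT replicates 1 to 3 of both subsets carried barcodes 11 to 16, whereas WT replicate 4 and all libraries of the mutants carried barcodes 24 to 46; results against WT within a subset, of the S100 genes and of the listed genes, were therefore also computed with replicate 4 standing alone for WT, on the assumption that it varies like the other groups. Of 85 such calls of listed genes other than the S100 genes, 80 held without WT replicate 4, whereas with replicate 4 alone for WT 5 held and 77 kept their direction; the others turned or no longer passed the filter on low values. The Slc29a3 and Tlr7 amplicons were still read in both mutants, and the table does not say whether they cover the edited bases, so they do not check the genotypes. Of the Ly6Chi monocyte markers with a row, 4 of 4 were higher in Ly6Chi in each genotype, and of 6 Ly6Clow monocyte markers, 5 in WT, 6 in Slc29a3-/- and 5 in Slc29a3-/- Tlr7-/- were higher in Ly6Clow; Ly6c2 itself had no row. Fcgr4 was 33.6 ± 6.14 RPM in WT Ly6Chi and 744 ± 95.3 RPM in WT Ly6Clow (SD, n = 4).

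All 6 measured genes were higher in Ly6Chi than in Ly6Clow monocytes, and this held in each of the 3 genotypes. The call required a fold above 1.5 and an adjusted P under 0.05 in limma on log2(RPM + 1), adjusted over all genes tested. By that rule 25.9% of all genes differed between the subsets in WT, 35% in Slc29a3-/- and 28.3% in Slc29a3-/- Tlr7-/-. The median difference of the 6 genes on the log2 scale was 2.34 in WT, 2.59 in Slc29a3-/- and 2.41 in Slc29a3-/- Tlr7-/-, against 0.07, -0.10 and 0.12 over all genes tested. In WT, the differences ran from 0.73 for S100a13 to 5.35 for S100a8. With replicate 4 alone for WT, the step was 8.41 for S100a8, 8.25 for S100a9, 2.81 for S100a10 and 2.23 for S100a1, with the highest adjusted P at 0.0051, while S100a6 (1.5, adjusted P = 0.35) and S100a13 (0.67, adjusted P = 0.44) did not pass.

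S100a8 and S100a9, the calprotectin pair, were the genes with the widest span, and both rose in Slc29a3-/- Ly6Chi monocytes. In WT Ly6Chi libraries S100a8 read 4012, 3315, 3910.4 and 3830.2 RPM. In Slc29a3-/- it read 12678, 10552, 9922 and 20070.0 RPM, and every one of these libraries lay above every WT library. When Tlr7 was lost as well it read 5876, 587, 2230.2 and 4465 RPM, on both sides of the WT libraries and below every Slc29a3-/- library, with replicate 2 the lowest.

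S100a9 was also highest in Slc29a3-/-. Its values were 8887, 7905, 9037 and 7278 RPM in WT Ly6Chi and 21652, 29826, 25319 and 40313 RPM in Slc29a3-/- Ly6Chi. The Slc29a3-/- Tlr7-/- values were 12485, 5048, 5188 and 14667 RPM, again on both sides of WT and below every Slc29a3-/- library. S100a9 ranked 4 among all amplicons in each WT Ly6Chi library, and 2 or 3 in each Slc29a3-/- one. Together both genes took 1.11 to 1.29% of all reads in WT, 3.43 to 6.04% in Slc29a3-/- and 0.564 to 1.91% in Slc29a3-/- Tlr7-/- Ly6Chi libraries.

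**Figure D1:**
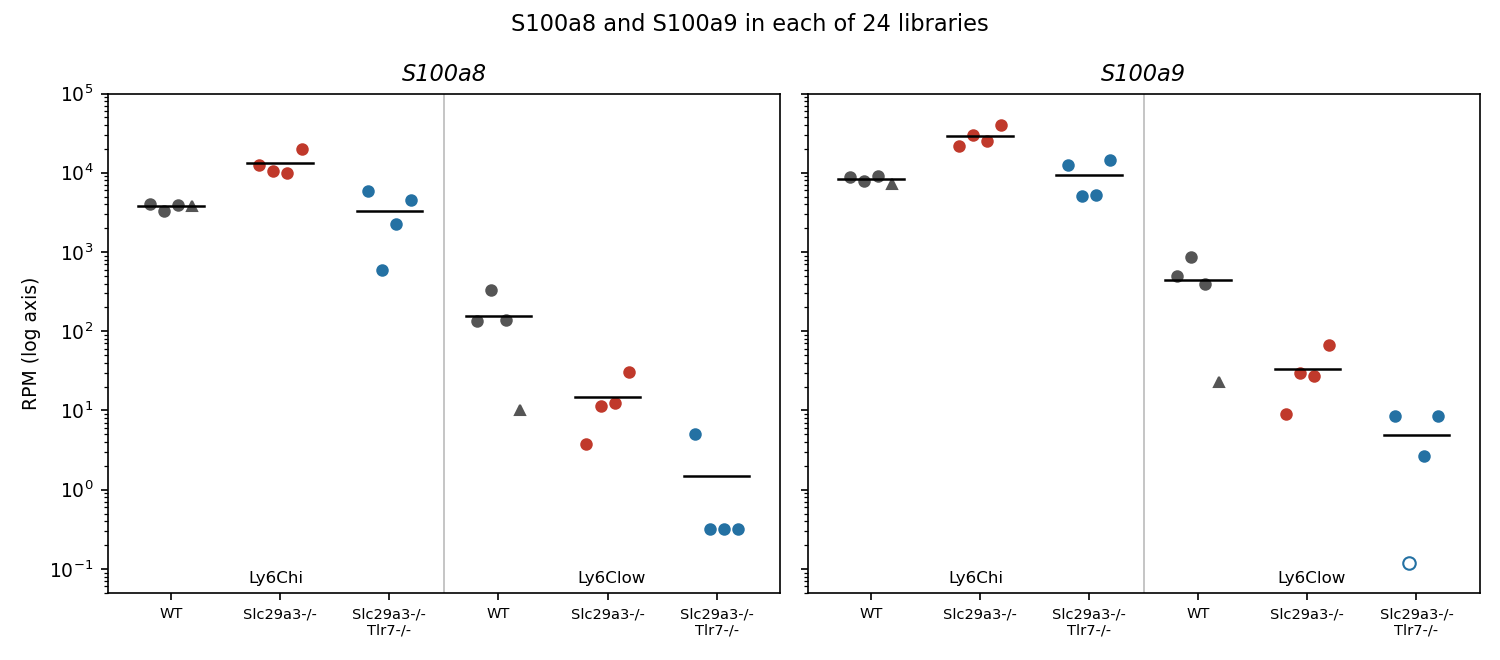
RPM of S100a8 and S100a9 on a log axis in each of the 24 libraries, by subset and genotype (points: libraries; triangles: WT replicate 4; lines: group means; open circle near the axis: 0 reads). The 4 Slc29a3-/- Ly6Chi libraries lie above all other libraries, and in Ly6Clow WT replicate 4 lies among the mutants while WT replicates 1 to 3 lie above them.

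Between Slc29a3-/- and WT Ly6Chi monocytes 3 of the 6 genes rose and none fell, where 22.4% of all genes tested were called in either direction. The ratio of mean RPM was 3.53 for S100a8 and 3.54 for S100a9, with log2 differences of 1.77 (SE 0.52, adjusted P = 0.02) and 1.79 (SE 0.33, adjusted P = 0.0018). S100a1 was the third, at 0.61. The S100a9 call held when any 1 library was left out. The S100a8 call was lost without WT replicate 2 (1.71, adjusted P = 0.054) and without Slc29a3-/- replicate 4 (1.55, adjusted P = 0.065). Against WT replicate 4 alone the log2 differences were 1.74 for S100a8 (adjusted P = 0.37) and 1.97 for S100a9 (adjusted P = 0.12). Neither gene passed in 1 model of all 24 libraries (adjusted P = 0.094 for S100a8 and 0.1 for S100a9), nor S100a8 without the filter on low values (adjusted P = 0.074).

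Against Slc29a3-/- Tlr7-/- Ly6Chi monocytes, S100a8 and S100a9 rose in Slc29a3-/- and none of the 6 genes fell, beside 17.2% of all genes called. The log2 difference was 2.40 for S100a8 (SE 0.52, adjusted P = 0.005) and 1.78 for S100a9 (SE 0.33, adjusted P = 0.0021). Both calls held without any 1 library, with S100a8 at 1.72 (adjusted P = 0.0019) without Slc29a3-/- Tlr7-/- replicate 2 and at 2.82 (adjusted P = 0.0014) without replicate 1. S100a9 did not pass without the filter (adjusted P = 0.06) or in 1 model of all 24 libraries (adjusted P = 0.12). Leaving out Slc29a3-/- Tlr7-/- replicate 2 brought the number of genes called to 4, with S100a1 added as a rise (0.62, adjusted P = 0.023) and S100a6 as a fall (-0.86, adjusted P = 0.034). Between Slc29a3-/- Tlr7-/- and WT Ly6Chi monocytes limma called none of the 6 genes and 1.42% of all genes. None of the 6 passed at an unadjusted P under 0.05 either, a threshold at which the share of all genes was not counted. There S100a8 differed by -0.63 on the log2 scale with a 95% interval from -1.73 to 0.47, and S100a9 by 0.01 with an interval from -0.70 to 0.73, so the spread leaves room for differences in either direction within these bounds. All 3 comparisons share libraries and are not independent of each other.

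In Ly6Clow monocytes the order of the genotypes was another one, with WT highest. S100a8 read 136, 329, 139 and 10.3 RPM in WT, 3.82, 11.5, 12.4 and 31 RPM in Slc29a3-/-, and 5.01, 0.318, 0.316 and 0.32 RPM in Slc29a3-/- Tlr7-/-. The last 3 values stand for 4 reads each, just above the floor of 3 reads. WT replicate 4 lay inside the range of Slc29a3-/-, apart from the other WT libraries.

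S100a9 in Ly6Clow monocytes read 499, 864, 394 and 23 RPM in WT and 9.14, 29.8, 27.1 and 67.9 RPM in Slc29a3-/-. The Slc29a3-/- Tlr7-/- libraries read 8.4, 0, 2.68 and 8.63 RPM, below every Slc29a3-/- library. Again WT replicate 4 lay among the Slc29a3-/- libraries and WT replicates 1 to 3 above them.

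Both genes fell in Slc29a3-/- Tlr7-/- against WT Ly6Clow monocytes, with log2 differences of -5.58 for S100a8 (SE 0.87, adjusted P = 0.005) and -5.89 for S100a9 (SE 0.98, adjusted P = 0.0071), and none of the 6 genes rose, where 8.31% of all genes were called. The ranges did not overlap. Against WT replicate 4 alone the differences were -2.55 (adjusted P = 0.44) and -2.49 (adjusted P = 0.45). For Slc29a3-/- against WT, limma called none of the 6 genes and 4.43% of all genes. In this comparison 2 of the 6 passed at an unadjusted P under 0.05, a threshold at which the share of all genes was not counted. There S100a8 differed by -2.86 (adjusted P = 0.075) and S100a9 by -3.18 (adjusted P = 0.081). Without WT replicate 4 they differed by -3.87 (adjusted P = 0.0022) and -4.31 (adjusted P = 0.0027), and against WT replicate 4 alone the sign turned, at 0.17 and 0.22. Both also passed in 1 model of all 24 libraries. Which WT libraries were used thus set both the direction and the call in this comparison, and the barcode range and whatever went with it cannot be told apart from the difference among WT libraries.

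Between the mutants in Ly6Clow, limma called none of the 6 genes and 1.93% of all genes. S100a8 and S100a9 passed at an unadjusted P under 0.05, for which the share of all genes was not counted. S100a8 differed by 2.72 (95% interval 0.86 to 4.57, adjusted P = 0.14) and S100a9 by 2.71 (95% interval 0.60 to 4.82, adjusted P = 0.18), both higher in Slc29a3-/-. With Ly6Clow WT replicate 4 left out of the shared estimate of the spread, S100a8 passed (2.72, adjusted P = 0.032), as it did in 1 model of all 24 libraries (adjusted P = 0.045).

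With all WT libraries, the effect of losing Slc29a3 was called different between the subsets for S100a8 and S100a9. In the model of all 24 libraries, the Ly6Chi difference minus the Ly6Clow difference between Slc29a3-/- and WT was 4.62 on the log2 scale for S100a8 (SE 1.09, adjusted P = 0.0079) and 4.97 for S100a9 (SE 1.12, adjusted P = 0.0056), beside 8.76% of all genes called. With replicate 4 alone for WT these were 1.57 (adjusted P = 0.84) and 1.75 (adjusted P = 0.79). For Slc29a3-/- Tlr7-/- against WT only S100a9 was called (5.90, SE 1.12, adjusted P = 0.046), beside 0.0634% of all genes, and S100a8 was just outside the threshold (4.94, SE 1.09, adjusted P = 0.084). The S100a9 call was also lost with TMM scaling (adjusted P = 0.053), RLE scaling (0.055), no filter (0.096), a filter on a mean of 10 RPM (0.1), the replicate number as a block (0.095) and a pseudocount of 0.1 (0.069), which called S100a8 instead (6.21, adjusted P = 0.041). It was lost in 16 of 24 fits that each left out 1 library, with adjusted P values from 0.053 to 0.14: without any of Ly6Chi WT replicates 1 to 3, Ly6Chi Slc29a3-/- replicates 1 to 4, Ly6Chi Slc29a3-/- Tlr7-/- replicates 3 and 4, Ly6Clow WT replicates 1 to 3, or replicates 2 and 3 of either mutant in Ly6Clow. The S100a8 call was gained without Ly6Chi Slc29a3-/- Tlr7-/- replicate 2 (5.62, adjusted P = 0.039), Ly6Clow WT replicate 4 (5.95, adjusted P = 0.0012) or Ly6Clow Slc29a3-/- Tlr7-/- replicate 1 (5.49, adjusted P = 0.042). Between the mutants, limma called the difference between subsets for none of the 6 genes and for 8.94% of all genes. At an unadjusted P under 0.05 with the fold rule 2 of the 6 passed, and the share of all genes at that threshold was not counted.

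Markers of neutrophils moved with S100a8 and S100a9, although Ly6G+ cells had been removed and sorted out, and markers of granulocyte-monocyte progenitors did so in part. The neutrophil list had 11 genes, all with a row and without the S100 genes, among them Ltf, Camp, Ngp and Lcn2 for granule proteins and Ly6g for the sorted antigen. Their summed level was 14458 to 22144 RPM in WT, 43911 to 83806 RPM in Slc29a3-/- and 6776 to 22254 RPM in Slc29a3-/- Tlr7-/- Ly6Chi libraries. Ngp alone made up most of each of these sums, at 9604 to 16065, 29135 to 57331 and 4209.7 to 16251 RPM. Of the 11, 7 rose and 2 (Retnlg and Mmp8) fell in Slc29a3-/- against WT Ly6Chi monocytes, with a median log2 difference of 1.46 against -0.14 over all genes. Against Slc29a3-/- Tlr7-/- Ly6Chi monocytes 9 rose and 1 fell. Ly6g read 31.8, 29.2, 33.5 and 17.9 RPM in WT and 59.2, 96.9, 70.8 and 139 RPM in Slc29a3-/- Ly6Chi (log2 difference 1.63, SE 0.52, adjusted P = 0.031; 1.43, adjusted P = 0.071, without WT replicate 4). With replicate 4 alone for WT 8 of the 9 differences kept their direction, 1 call held (Cd177), and Retnlg turned to 0.51. Of 7 progenitor genes, 5 rose, among them Elane, the gene of neutrophil elastase, by a log2 difference of 2.31 (SE 0.33, adjusted P = 3.4e-04). The summed progenitor level was 352 to 456 RPM in WT and 868 to 2901 RPM in Slc29a3-/- Ly6Chi libraries. In Slc29a3-/- Tlr7-/- Ly6Chi it was 367, 665, 633 and 946 RPM, above every WT library in replicates 2 to 4, although S100a8 and S100a9 together were below every WT library in replicates 2 and 3.

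In Ly6Clow monocytes the neutrophil sum was 47.9 to 1405 RPM in WT, 25.8 to 109 RPM in Slc29a3-/- and 11.1 to 54.9 RPM in Slc29a3-/- Tlr7-/-. WT replicates 1 to 3 read 699, 1405 and 619.9 RPM and WT replicate 4 read 47.9 RPM, the same split as in S100a8 and S100a9. Ly6g was at 0 in all 4 Slc29a3-/- Tlr7-/- Ly6Clow libraries, and no other gene of the neutrophil list was at 0 throughout a group. Of the 8 neutrophil genes tested there, 7 fell in Slc29a3-/- Tlr7-/- and 3 fell in Slc29a3-/- against WT. The sum of S100a8 and S100a9 was 0.507 to 0.768 times the neutrophil sum in WT Ly6Chi, 0.707 to 0.799 times in Slc29a3-/- Ly6Chi and 0.661 to 1.09 times in Slc29a3-/- Tlr7-/- Ly6Chi libraries. It was 0.694 to 0.908 times in WT Ly6Clow and 0.503 to 0.909 times in Slc29a3-/- Ly6Clow libraries. In Slc29a3-/- Tlr7-/- Ly6Clow libraries it was 0.0286 to 0.273 times, so S100a8 and S100a9 were low against the marker sum there. That marker sum was 49, 11.1, 19.9 and 54.9 RPM, of which Ngp was 21.2, 1.35, 0.789 and 30.9 RPM. In replicates 2 and 3 most of it thus came from other listed genes, and a ratio to the granule genes alone was not computed. Monocytes also express S100a8 and S100a9. Fewer or more cells of a type and less or more RNA per cell cannot be told apart in these bulk samples. The part of neutrophil or progenitor RNA in the results was not tested.

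**Figure D2:**
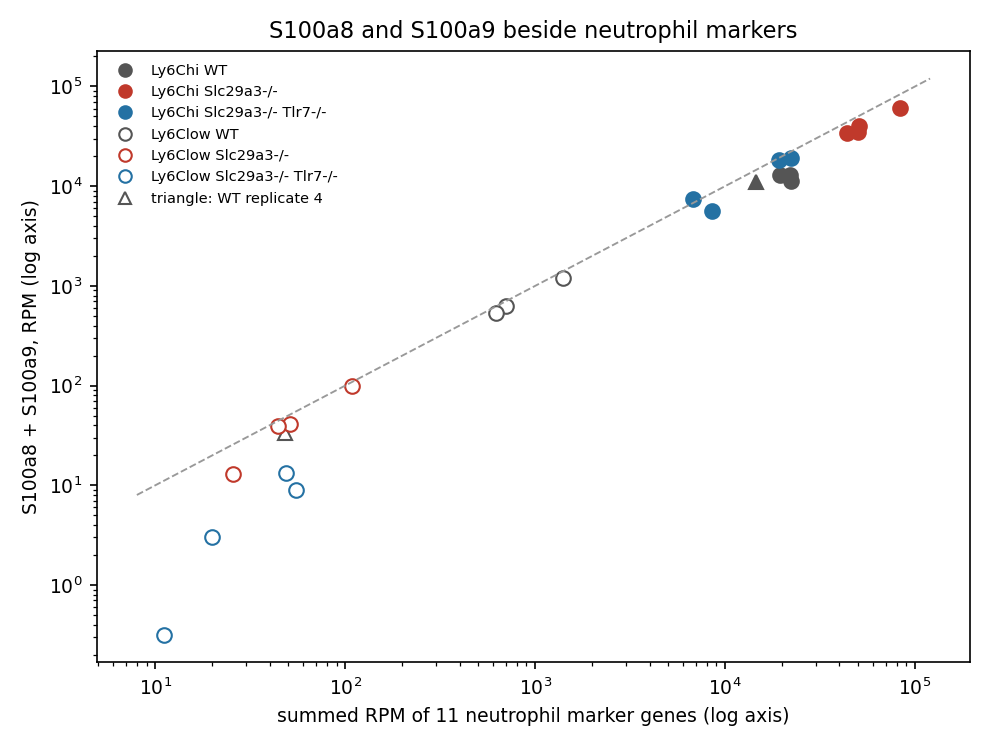
Sum of S100a8 and S100a9 (RPM, log axis) against the summed RPM of 11 neutrophil marker genes (log axis), with 1 point per library; filled points are Ly6Chi, open points Ly6Clow, triangles WT replicate 4, and the dashed line marks equal values. Libraries lie near the line from 25.8 to 83806 RPM of markers in WT and Slc29a3-/-. The 4 Slc29a3-/- Tlr7-/- Ly6Clow libraries lie below it. Ngp alone makes up most of the marker sum in Ly6Chi. In Slc29a3-/- Tlr7-/- Ly6Clow replicates 2 and 3 Ngp is 1.35 and 0.789 RPM of 11.1 and 19.9 RPM.

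Over the 24 libraries the genes most like S100a8 were Ltf (Pearson r = 0.993 of log2(RPM + 1)), Lcn2 (0.991) and Ngp (0.984), out of 7486 genes with a mean of at least 10 RPM. Those most like S100a9 were Ngp (0.992), Camp (0.990) and Ltf (0.989). S100a8 and S100a9 themselves correlated at 0.99 over all libraries, 0.91 within the 12 Ly6Chi and 0.97 within the 12 Ly6Clow libraries. These values describe libraries that share a subset, a genotype and in part a sort, and the difference between subsets alone gives a high r. The S100a9 amplicon read 1.71 to 2.83 times the S100a8 amplicon in Slc29a3-/- Ly6Chi and 1.9 to 2.38 times in WT Ly6Chi libraries. The ratios in Slc29a3-/- Tlr7-/- Ly6Chi were 2.12, 8.59, 2.33 and 3.28, the second value being replicate 2.

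Released S100A8 and S100A9 are known to act through TLR4 and its co-receptors, through the receptor for advanced glycation end products encoded by Ager, and through basigin (Bsg), CD36 and MCAM. All 7 receptor genes had a row and 6 passed the filter. Ager did not, and had a group mean of 0.119 to 0.494 RPM. In Slc29a3-/- against WT Ly6Chi monocytes 2 of the 6 fell and none rose, beside 22.4% of all genes called. Cd14, which presents ligands to TLR4, read 227, 245, 230.3 and 48.8 RPM in WT and 22.7, 27.4, 30 and 22.2 RPM in Slc29a3-/- Ly6Chi. The groups did not overlap (log2 difference -2.60, SE 0.48, adjusted P = 0.0016), but WT replicate 4 was far below the other WT libraries, and against it alone the difference was -0.92 (adjusted P = 0.45). Mcam fell as well (-2.12, SE 0.62, adjusted P = 0.02), from a mean of 8.83 to 1.07 RPM, with -0.95 (adjusted P = 0.68) against replicate 4 alone. Tlr4 itself was 52.7 ± 26.8 RPM in WT and 69.6 ± 11.5 RPM in Slc29a3-/- Ly6Chi and did not pass (0.49, adjusted P = 0.2).

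In Ly6Clow monocytes Tlr4 rose in both mutants, from 69 ± 29.1 RPM in WT to 117 ± 11.6 RPM in Slc29a3-/- (log2 difference 0.82, adjusted P = 0.048) and 125 ± 18.8 RPM in Slc29a3-/- Tlr7-/- (0.92, adjusted P = 0.027). The WT libraries read 52.9, 51.2, 59.5 and 112 RPM, so that replicate 4 lay inside the range of both mutants (105 to 132 and 103 to 149 RPM), and against it alone the differences were 0.05 and 0.14. Cd36, a scavenger receptor, was 497 ± 137 RPM in WT Ly6Clow and fell to 177 ± 47.2 RPM in Slc29a3-/- (-1.47, SE 0.26, adjusted P = 0.0057; -0.78, adjusted P = 0.62, against replicate 4 alone), while Slc29a3-/- Tlr7-/- was at 421 ± 127 RPM. Between the mutants Cd36 was lower in Slc29a3-/- (-1.23, SE 0.26, adjusted P = 0.021). Cd14 and Mcam fell in Slc29a3-/- Tlr7-/- Ly6Clow (-2.0, adjusted P = 0.022, and -1.32, adjusted P = 0.044). WT replicate 4 again lay inside the mutant range, at 28.5 RPM for Cd14 (other WT libraries 95.3 to 147, mutant 13.1 to 36.8 RPM) and 1.3 RPM for Mcam (2.52 to 3.36 and 0 to 2.26 RPM), and against it alone the differences were -0.52 and -0.72 (adjusted P = 0.68 and 0.62). Between the subsets Cd36 was lower in Ly6Chi in every genotype, by 4.82 on the log2 scale in WT, which is the opposite direction from the S100 genes.

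S100a10, the annexin A2 partner, differed mainly between the subsets. It read 112, 110.5, 116 and 103 RPM in WT Ly6Chi and 14.3, 19.4, 13.8 and 13.9 RPM in WT Ly6Clow, a log2 difference of 2.78 (SE 0.20, adjusted P = 1.9e-10). In Slc29a3-/- Ly6Chi it read 84.5, 76.9, 106 and 53.8 RPM, with 1 library inside the WT range. The Slc29a3-/- Tlr7-/- Ly6Chi libraries read 78.7, 154, 108 and 108 RPM, on both sides of WT. The log2 difference between Slc29a3-/- and WT was -0.49 (SE 0.21, adjusted P = 0.089), which missed the threshold and passed only without Slc29a3-/- replicate 3 (-0.64, adjusted P = 0.043). Against Slc29a3-/- Tlr7-/- it was -0.48 (adjusted P = 0.12), and it passed only without Slc29a3-/- Tlr7-/- replicate 1 (-0.63, adjusted P = 0.041). In Ly6Clow the 3 genotype means were 15.3, 12.6 and 16.6 RPM, with overlapping ranges. Within the 12 Ly6Chi libraries S100a10 ran against S100a8 (r = -0.86) and S100a9 (r = -0.79), although all 3 were higher in Ly6Chi.

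**Figure D3:**
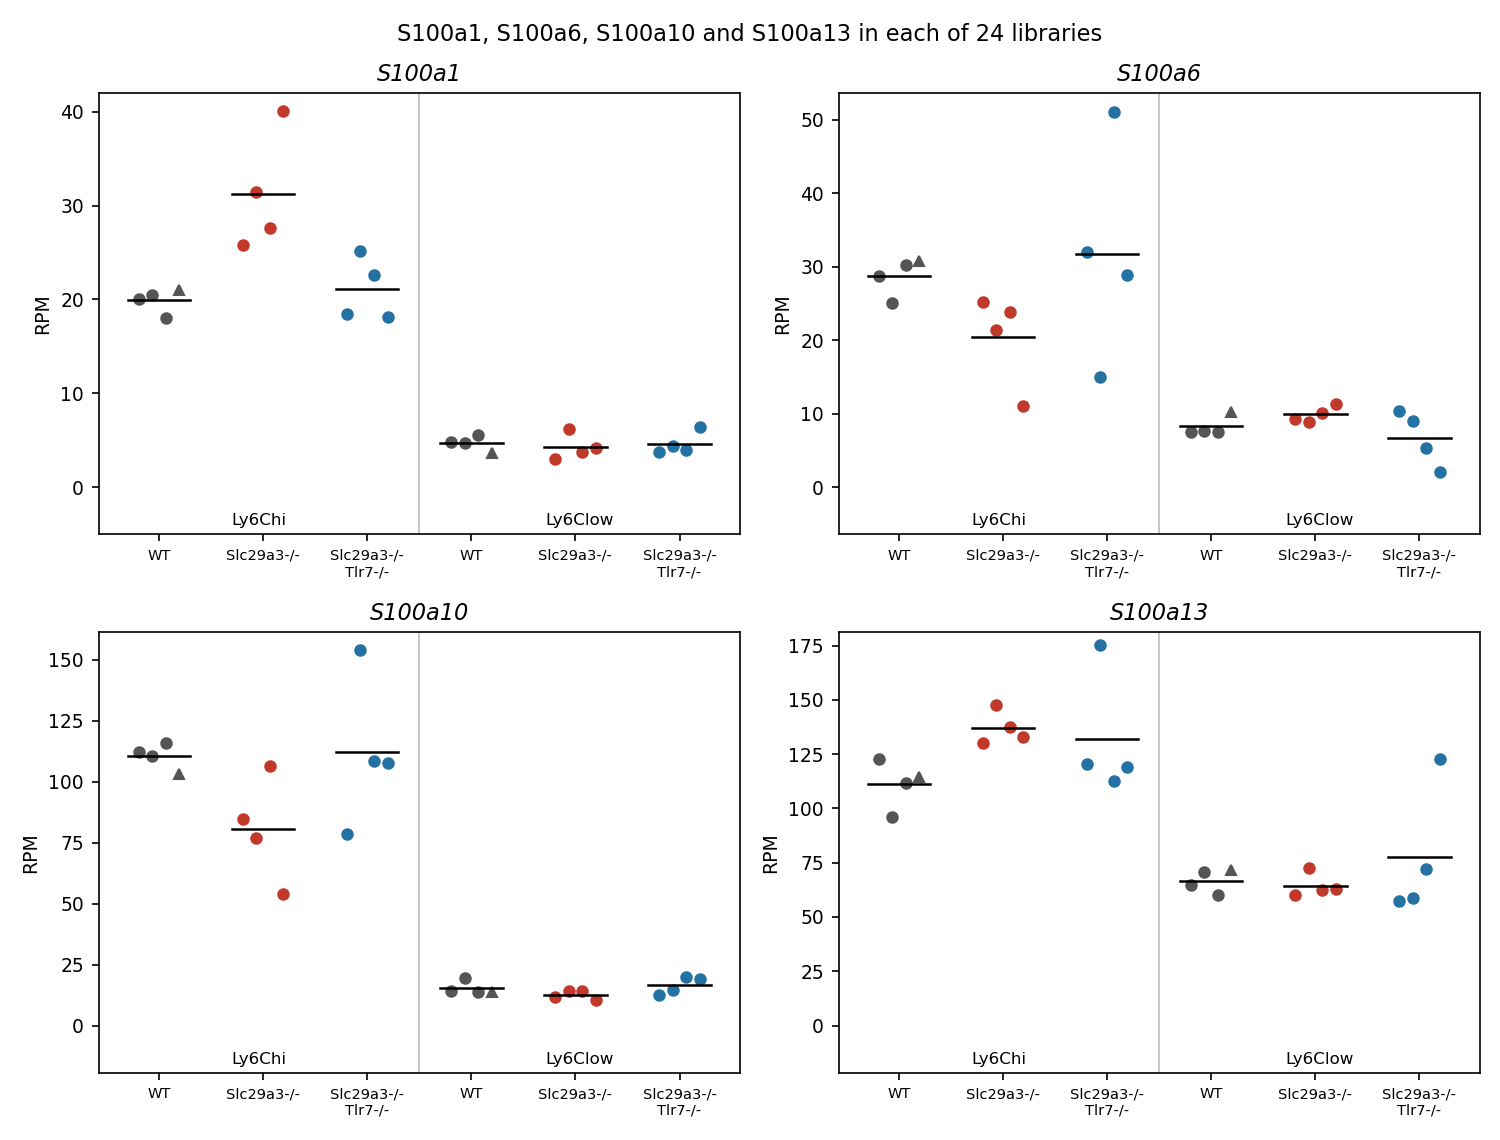
RPM of S100a1, S100a6, S100a10 and S100a13 in each of the 24 libraries (points: libraries; triangles: WT replicate 4; lines: group means). All 4 genes have higher means in Ly6Chi in every genotype, and S100a1 is highest in the 4 Slc29a3-/- Ly6Chi libraries.

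Annexins are calcium-dependent membrane-binding proteins, and AHNAK is a very large scaffold that S100A10 and annexin A2 hold at the plasma membrane. Of 6 genes listed as annexin partners 5 had a row and passed the filter. In WT all 5 were higher in Ly6Chi, as were all 6 S100 genes. Anxa2 read 912, 1044, 886 and 1027 RPM in WT Ly6Chi and 737, 921, 629 and 734 RPM in Slc29a3-/- Ly6Chi, a difference that did not pass (-0.37, SE 0.14, adjusted P = 0.06). Ahnak fell in Slc29a3-/- in both subsets. Its values were 2641, 2289, 2631 and 2058 RPM in WT and 1049, 1053, 1012 and 621 RPM in Slc29a3-/- Ly6Chi (log2 difference -1.39, SE 0.20, adjusted P = 3.3e-04). In Ly6Clow the log2 difference was -1.62 (SE 0.19, adjusted P = 2.8e-04). Against WT replicate 4 alone these were -1.17 (adjusted P = 0.11) and -1.13 (adjusted P = 0.18). In both subsets it was also lower in Slc29a3-/- than in Slc29a3-/- Tlr7-/-, by -1.12 and -1.54.

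Anxa1, whose protein binds S100A11 and limits leukocyte recruitment, rose in Slc29a3-/- Ly6Chi from 865 ± 84.1 to 1844 ± 496 RPM (log2 difference 1.06, SE 0.20, adjusted P = 0.0019). In Slc29a3-/- Ly6Clow it was at 165 ± 14 RPM beside 185 ± 22.5 RPM in WT. The effect differed between the subsets by 1.21 (SE 0.24, adjusted P = 0.0022). Anxa6 fell in Slc29a3-/- Ly6Chi, from 618 ± 20.9 to 309.6 ± 68 RPM (-1.02, SE 0.15, adjusted P = 3.9e-04). Against WT replicate 4 alone the Ly6Chi differences were 0.87 for Anxa1 (adjusted P = 0.25) and -1.09 for Anxa6 (adjusted P = 0.064). Both genes lay close to WT in Slc29a3-/- Tlr7-/- Ly6Chi, at 739 ± 199 RPM for Anxa1 and 609 ± 31.9 RPM for Anxa6, with log2 differences from WT of -0.26 (adjusted P = 0.47) and -0.02 (adjusted P = 0.94).

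**Figure D4:**
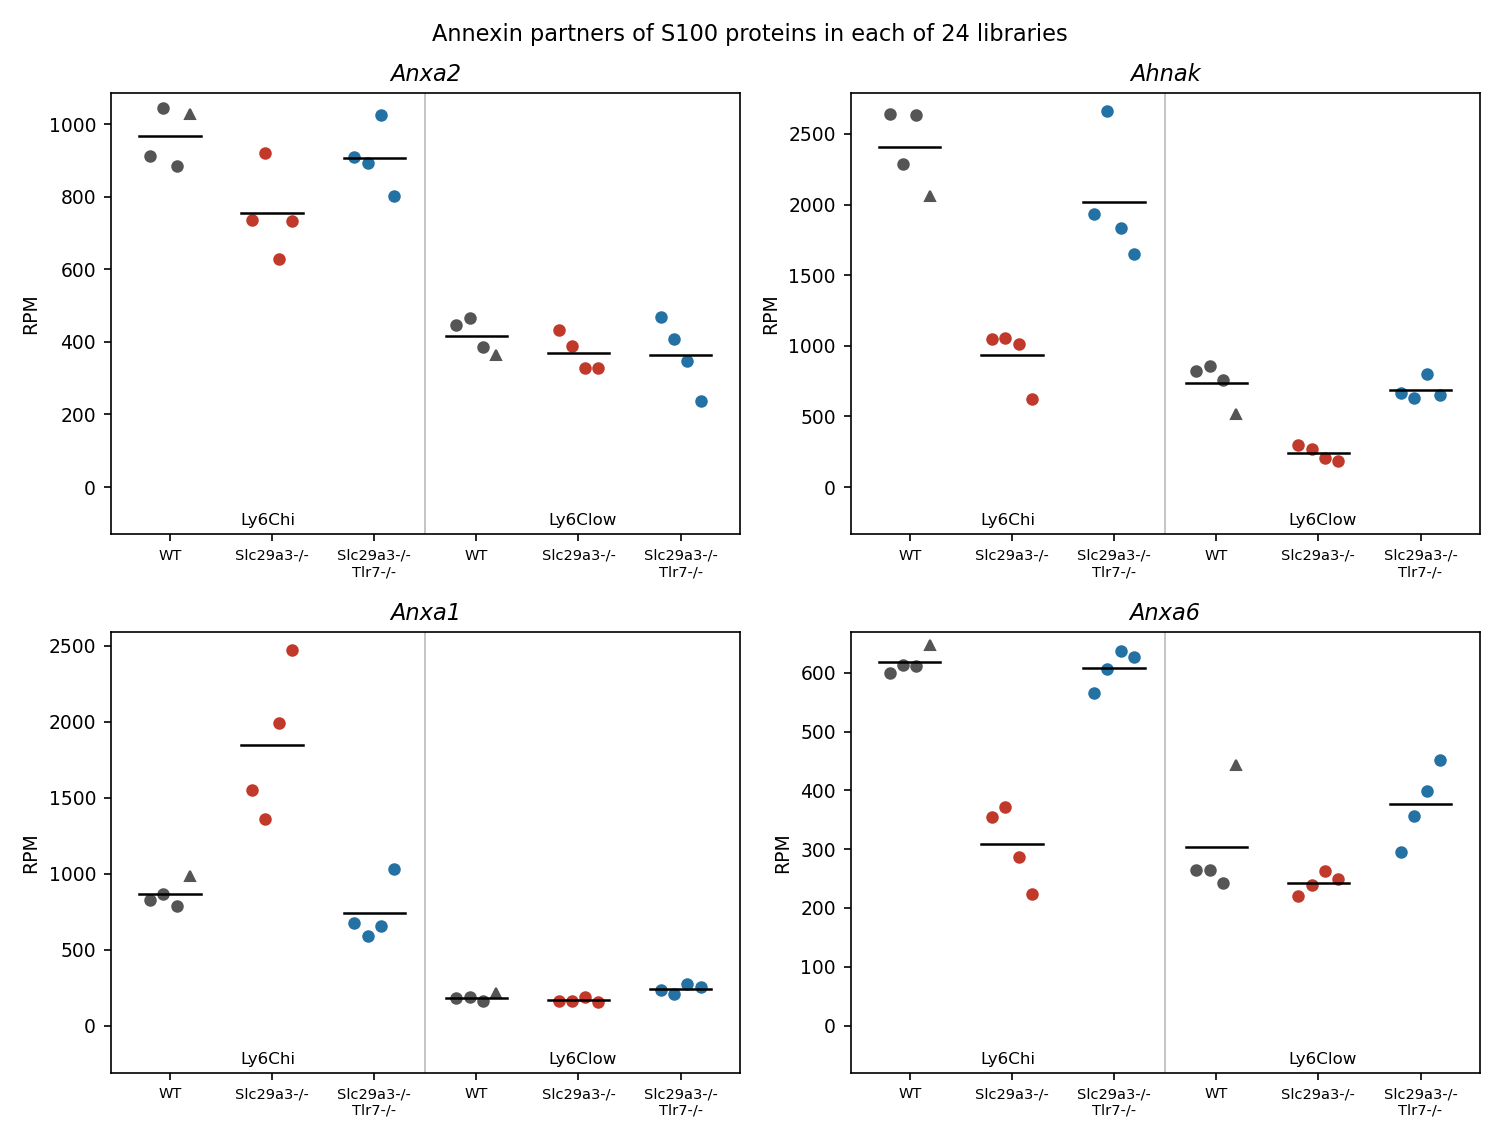
RPM of Anxa2, Ahnak, Anxa1 and Anxa6 in each of the 24 libraries (points: libraries; triangles: WT replicate 4; lines: group means). In Ly6Chi the Slc29a3-/- libraries are lowest for Ahnak (621 to 1053 RPM) and Anxa6 (224 to 372 RPM) and highest for Anxa1 (1362 to 2475 RPM).

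S100a6, the gene of calcyclin, read 28.7, 25, 30.2 and 30.8 RPM in WT Ly6Chi and 25.2, 21.4, 23.9 and 11 RPM in Slc29a3-/- Ly6Chi, where the groups overlapped by 1 library. The widest spread was in Slc29a3-/- Tlr7-/- Ly6Chi, at 32, 15, 51.1 and 28.9 RPM. No genotype comparison was called within a subset, and the log2 difference between Slc29a3-/- and WT Ly6Chi was -0.53 with a 95% interval from -1.19 to 0.13. In Ly6Clow the lowest library was Slc29a3-/- Tlr7-/- replicate 4 at 2 RPM, and the means were 8.25, 9.89 and 6.65 RPM in WT, Slc29a3-/- and Slc29a3-/- Tlr7-/-. The step between subsets was smallest in Slc29a3-/- (0.91, SE 0.34, adjusted P = 0.033), where the ranges overlapped. That call was lost without any of Slc29a3-/- replicates 1 to 3 of either subset, with adjusted P values from 0.058 to 0.093, and without the filter (adjusted P = 0.074). The test of whether the step differed between Slc29a3-/- and Slc29a3-/- Tlr7-/- gave -1.23 (SE 0.48, adjusted P = 0.11), which passed without Ly6Chi Slc29a3-/- Tlr7-/- replicate 2 (-1.54, adjusted P = 0.034) or Ly6Clow Slc29a3-/- Tlr7-/- replicate 1 (-1.48, adjusted P = 0.046).

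Of 7 genes of intracellular targets and cargo, 3 passed the filter in Ly6Chi and 4 in Ly6Clow, and the only call between genotypes was Myh9 in Ly6Clow. Cacybp lay between 48.5 and 63 RPM in all 6 group means, and neither it nor Trp53, whose product binds several S100 proteins, was called in any comparison. Myh9, the nonmuscle myosin heavy chain that S100A4 binds, rose in Slc29a3-/- Tlr7-/- Ly6Clow (log2 difference 0.64, SE 0.13, adjusted P = 0.016) from 1437 ± 106 to 2240.2 ± 278 RPM, and by the same 0.64 (adjusted P = 0.43) against replicate 4 alone. In Slc29a3-/- Ly6Clow it was at 2049 ± 76.8 RPM, a log2 difference of 0.51 (adjusted P = 0.039) below the 1.5-fold rule. The genes most like S100a6 over the 24 libraries were Txndc16 (r = 0.968), Cib1 (0.943), which encodes another calcium-binding protein, and Lilra6 (0.941).

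S100a1, best known from heart muscle, rose in Slc29a3-/- Ly6Chi monocytes. It read 20, 20.5, 18.1 and 21 RPM in WT and 25.8, 31.5, 27.7 and 40.1 RPM in Slc29a3-/- Ly6Chi, with no overlap. Values of 18.5, 25.2, 22.7 and 18.1 RPM in Slc29a3-/- Tlr7-/- Ly6Chi also lay below every Slc29a3-/- library. The log2 difference from WT was 0.61 (SE 0.17, adjusted P = 0.016), just over the 1.5-fold rule of 0.58. It did not reach the rule without Slc29a3-/- replicate 4 (0.49, adjusted P = 0.048) and without WT replicate 3 (0.57, adjusted P = 0.053). Against WT replicate 4 alone it was 0.53 (adjusted P = 0.43). Between the mutants it was 0.54 (SE 0.17, adjusted P = 0.038), under the fold rule, and it passed with TMM or RLE scaling (0.65 and 0.64). Leaving out Slc29a3-/- replicate 1 (0.62), Slc29a3-/- replicate 3 (0.59) or Slc29a3-/- Tlr7-/- replicate 2 (0.62) also brought it over the rule. In Ly6Clow all 12 libraries lay between 3.02 and 6.39 RPM, and no genotype comparison was called there.

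S100a13, the divergent neighbor of S100a1, had the smallest step between the subsets in WT (0.73) and Slc29a3-/- Tlr7-/- (0.80). It read 123, 96, 112 and 115 RPM in WT Ly6Chi and 130.1, 148, 138 and 133 RPM in Slc29a3-/- Ly6Chi. These groups did not overlap, but the log2 difference of 0.30 (SE 0.14, adjusted P = 0.13) did not pass, and it was 0.44 with TMM scaling (adjusted P = 0.043), under the fold rule. The highest libraries of all were Slc29a3-/- Tlr7-/- replicate 2 in Ly6Chi (175 RPM) and, in Ly6Clow, Slc29a3-/- Tlr7-/- replicate 4 (123 RPM). No genotype comparison of S100a13 was called. S100a1 and S100a13, between whose RefSeq starts the 104 bases shown above lie, correlated at 0.91 over all 24 libraries. Within the Ly6Chi libraries r was 0.54, and within the Ly6Clow libraries 0.58. Some pairs of S100 genes that lie further apart had similar or higher values, and others had lower ones. Over all 24 libraries S100a1 correlated at 0.93 with S100a10 and at 0.90 with S100a9. Within Ly6Chi r was 0.66 for S100a1 with S100a9, and within Ly6Clow 0.62 for S100a10 with S100a13. Whether the table counts strands separately was not given in the sources used here. The annotated S100a1 and S100a13 genes do not overlap. Of the cargo genes of S100A13, Fgf1 was under 1 RPM in every group mean. Il1a was at 0 in all 4 Slc29a3-/- Ly6Chi libraries and 1.02 ± 0.411 RPM in WT Ly6Chi. It passed the filter in Ly6Clow and in the model of all 24 libraries. In Slc29a3-/- it was lower in Ly6Chi than in Ly6Clow (log2 difference -1.17, SE 0.34, adjusted P = 0.0069 in limma), the opposite direction from S100a13. The same step was not called in WT (-0.54) or Slc29a3-/- Tlr7-/- (-0.48).

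**Figure D5:**
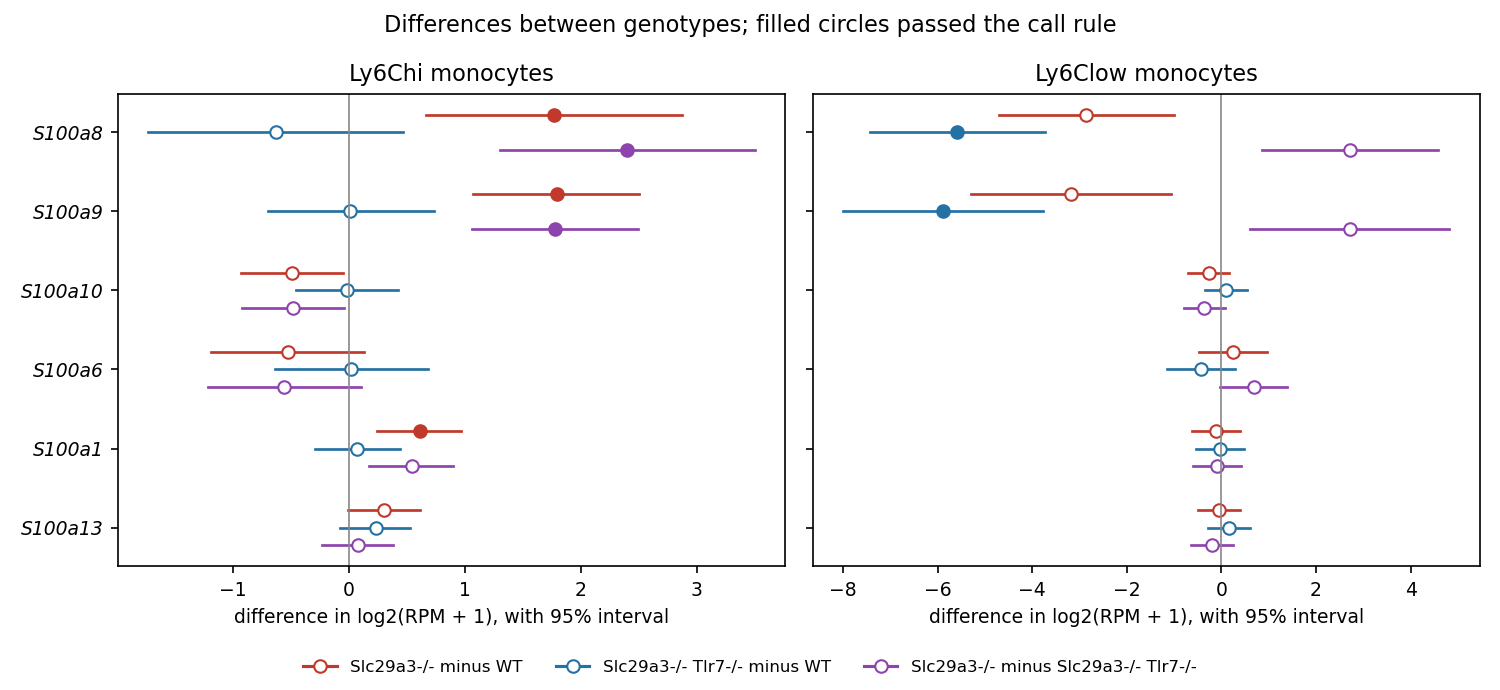
Differences between genotypes in log2(RPM + 1) for the 6 genes, in Ly6Chi (left) and Ly6Clow (right), with 95% intervals from limma; filled circles passed the fold and adjusted P rule, and the 2 panels have different scales. Filled circles are found for S100a8 and S100a9 in both panels and for S100a1 in Ly6Chi only.

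Set side by side, the Ly6Chi means of S100a8, S100a9 and S100a1 were highest in Slc29a3-/-, those of S100a6 and S100a10 lowest in Slc29a3-/-, and those of S100a13 lowest in WT. Among neighbors in the order of the 6 group means, library ranges did not overlap at the top for S100a1, S100a8 and S100a9. The top group there was Slc29a3-/- Ly6Chi. How many of all genes have a top group set apart in this way was not counted. Of all genes tested in Ly6Chi, 22.4% were called between Slc29a3-/- and WT and 17.2% between the mutants. For S100a6, S100a10 and S100a13 each Ly6Chi group overlapped the next Ly6Chi group in the order, and the Ly6Chi groups of S100a10 all lay above its Ly6Clow groups. Under TMM scaling the median of all genes moved from -0.14 to -0.02 in the Ly6Chi comparison of Slc29a3-/- with WT, from -0.12 to -0.00 between the mutants in Ly6Chi, and from -0.15 to 0.00 and from -0.20 to -0.03 in the tests between subsets of Slc29a3-/- against WT and against Slc29a3-/- Tlr7-/-, so the RPM differences there sit lower by about that much than differences relative to the median gene. The genes most like S100a1 were Ptgr1 (r = 0.979), Ctdspl (0.977) and Clec5a (0.976), a myeloid receptor. Those most like S100a10 were Cd93 (0.981), Mfsd7a (0.980) and Vim (0.977), the gene of vimentin, and those most like S100a13 were Tspan5 (0.952), E2f2 (0.950) and Mtch1 (0.949).

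The other 9 S100 genes with a row, S100a2, S100a3, S100a5, S100a7a, S100a14, S100a16, S100b, S100g and S100z, were at or near 0. None passed the filter of 1 RPM in 4 libraries. The highest value of any of them in any library was 1.11 RPM, for S100a7a, followed by 1.03 RPM for S100a5, and 7 of the 9 stayed below 1 RPM throughout. S100z was at 0 in all 24 libraries, which at 3 reads allows up to 0.244 RPM in the shallowest of them.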

How the data were processed

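RNA from sorted splenic monocytes was converted to libraries with the Ion AmpliSeq Transcriptome Mouse kit, which amplifies 1 short stretch of each gene, and sequenced on an Ion Proton. The authors deposited 1 table of RPM values (reads per 1000000 reads) of 23930 amplicons in 24 libraries. The submitters' processing notes name the mm10 build. The authors' methods name AmpliSeqRNA (version 5.2.0.3) on Torrent Suite (version 5.2.2), and also Cutadapt for trimming, STAR for mapping, and HTSeq and DESeq2 for counts and their scaling; which step wrote the table is not stated. Values written as 0.0001 were set back to 0. Since the reads carry no molecular identifiers, the floor of 3 reads covers counting error only.

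A gene was tested if it reached 1 RPM in 4 or more libraries of a fit, and log2(RPM + 1) was modelled with limma 3.58.1 (R 4.3.3, eBayes with trend). Genotypes were compared in a model of the 12 libraries of a subset, and subsets in a model of all 24. A call needed a fold above 1.5 and a Benjamini-Hochberg adjusted P under 0.05 over all genes tested. Differences of log2(RPM + 1) understate the change of low genes. Alternatives were TMM and RLE scaling, no filter, a filter on the mean (10 RPM), a pseudocount of 0.1, unadjusted P, the replicate number as a block, 1 model of all 24 libraries, only the 8 libraries of a genotype, each library left out, and replicate 4 alone for WT. A block within genotype for the comparisons between subsets, and the fits of the listed genes by WT replicate 4, were added after seeing the data. Same-numbered Ly6Chi and Ly6Clow libraries deviated together in WT (r from 0.26 to 0.62, all 4 pairs over 0.1). In the mutants they did not throughout, with 3 of 4 pairs in Slc29a3-/- and 1 of 4 in Slc29a3-/- Tlr7-/- over 0.1. In WT the replicate number also carries the split of barcodes, and the labels name no mouse. Pairing by mouse therefore cannot be told apart from that split. The block within genotype was fitted for all 3 genotypes, and for the step between subsets only its WT result is named. The 2 planned count tests on rebuilt reads were not run, because a check for whole reads did not pass with 0 written as 0.0001. The fitting code was tested on simulated data.

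The 8 genes, the gene lists and the comparisons were chosen with earlier results of these data known. The text names the 8 genes, any gene of the lists (receptors, annexin partners, intracellular targets, other S100 genes, cell type markers and label checks) and, for each measured member, the 3 other genes with the highest Pearson r over the 24 libraries. Software for the remaining steps was pandas 2.3.3, numpy 2.4.6 and matplotlib 3.10.9 under Python 3.11.15.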

Additional observations from a re-analysis of the deposited data

Results flagged for a closer look

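In 4 of the 42 sets of 4 values examined (6 genes and the S100a9 to S100a8 ratio in 6 groups), 1 library lay far from the other 3 by Dixon's criterion at 95%; chance alone gives about 1 in 20 sets. These were S100a6 in WT Ly6Clow replicate 4 (10.3 RPM, the others 7.52 to 7.69), S100a8 in Slc29a3-/- Tlr7-/- Ly6Clow replicate 1 (5.01 RPM, the others 0.316 to 0.32), S100a10 in WT Ly6Clow replicate 2 (19.4 RPM, the others 13.8 to 14.3) and S100a13 in Slc29a3-/- Tlr7-/- Ly6Chi replicate 2 (175 RPM, the others 113 to 120.5).

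With all WT libraries, the effect of genotype was called different between Ly6Chi and Ly6Clow by the interaction test in limma. In Slc29a3-/- against WT the differences were 4.97 for S100a9 on the log2 scale (adjusted P = 0.0056) and 4.62 for S100a8 (adjusted P = 0.0079). In Slc29a3-/- Tlr7-/- against WT the difference was 5.90 for S100a9 (adjusted P = 0.046). With replicate 4 alone for WT they were 1.75, 1.57 and 2.68, with adjusted P values of 0.79, 0.84 and 1. The last of these calls was also lost with TMM (adjusted P = 0.053) or RLE scaling (0.055), the replicate block (0.095), a pseudocount of 0.1 (0.069), no filter (0.096) or one on the mean (0.1), and in 16 of 24 fits without 1 library.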

How the results depend on the processing

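Over 72 differences (6 genes in 12 comparisons), 1926 values were recomputed under alternatives: 1809 kept direction and side of the threshold, 48 (of 12 differences) lost the call, 28 (of 12) gained it and 41 (of 18) changed sign. The 3 counts between subsets and the Ly6Chi count of 0 for Slc29a3-/- Tlr7-/- against WT stayed within 1.5 times the main count throughout. The number of genes called moved in the other comparisons, and the cause was not tested. The share of all genes called under each alternative was not set beside these counts. They therefore do not show whether the S100 genes moved apart from all genes. With replicate 4 alone for WT, the Ly6Chi log2 differences between Slc29a3-/- and WT were 1.97 for S100a9 and 1.74 for S100a8. In the main fit they were 1.79 and 1.77. For Slc29a3-/- against WT in Ly6Chi (3), it was 1 in 1 model of all 24 libraries, 0 with replicate 4 alone for WT, and 1 to 4 with a library left out. Between the mutants in Ly6Chi (2), it was 1 without the filter, 1 in the model of all libraries, and 2 to 4 with a library left out. For Slc29a3-/- against WT in Ly6Clow (0), it was 2 at an unadjusted P, 2 in the model of all libraries, and 0 to 2 with a library left out. For Slc29a3-/- Tlr7-/- against WT in Ly6Clow (2), it was 0 with replicate 4 alone for WT. Between the mutants in Ly6Clow (0), it was 2 at an unadjusted P, 1 in the model of all libraries, and 0 to 1 with a library left out. For the difference between subsets, Slc29a3-/- against WT (2) gave 0 with replicate 4 alone for WT. Slc29a3-/- Tlr7-/- against WT (1) gave 0 with TMM, with RLE, without the filter, with a mean of at least 10 RPM, and with replicate 4 alone for WT, 2 at an unadjusted P, and 0 to 2 with a library left out; a pseudocount of 0.1 kept the count but called S100a8 in place of S100a9. The mutants (0) gave 2 at an unadjusted P and 0 to 1 with a library left out.

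Same-numbered libraries of the subsets deviated together in WT but not throughout in the mutants. In WT this cannot be told apart from the split of barcodes. Same-numbered libraries of different genotypes within a subset did not deviate together throughout (r of deviations from -0.19 to 0.15, 4 of 24 over 0.1). With the block within genotype, all 6 genes stayed called between the subsets in WT. The replicate block took the count of the Slc29a3-/- Tlr7-/- against WT difference between subsets from 1 to 0 and moved no other count past 1.5 times.

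Sign changes were found in differences near 0 or resting on WT. With replicate 4 alone for WT, Slc29a3-/- Tlr7-/- against WT in Ly6Chi gave -0.00 for S100a1, -0.08 for S100a6 and 0.08 for S100a10; Slc29a3-/- against WT in Ly6Clow gave 0.22 for S100a9, 0.14 for S100a1, -0.05 for S100a6 and 0.17 for S100a8; Slc29a3-/- Tlr7-/- against WT gave 0.24 for S100a1 in Ly6Clow and -0.24 for its difference between subsets. RLE scaling gave 0.00 for S100a10 in Ly6Chi and 0.03 for S100a1 in Ly6Clow (Slc29a3-/- Tlr7-/- against WT), and for S100a10 between subsets and mutants TMM gave 0.08 and RLE 0.09. With a library left out, Slc29a3-/- Tlr7-/- against WT in Ly6Chi ran from -0.26 to 0.25 for S100a9, -0.01 to 0.14 for S100a1, -0.24 to 0.33 for S100a6, -1.06 to 0.05 for S100a8 and -0.18 to 0.14 for S100a10. In Ly6Clow, S100a1 ran from -0.28 to 0.00 for Slc29a3-/- against WT, -0.17 to 0.05 for Slc29a3-/- Tlr7-/- against WT and -0.25 to 0.05 between the mutants, and S100a13 from -0.09 to 0.27 and -0.32 to 0.04 in the last 2. Between subsets, Slc29a3-/- Tlr7-/- against WT ran from -0.07 to 0.32 for S100a13 and -0.28 to 0.04 for S100a10, and the mutants from -1.0 to 0.13 for S100a8 and -0.27 to 0.06 for S100a10.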

Other observations

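Other markers also differed between the Ly6Chi libraries in which S100a8 and S100a9 rose. Of 5 dendritic cell genes, all 5 fell in Slc29a3-/- against WT Ly6Chi monocytes (summed level 12.1 to 18.7 RPM against 63.8 to 124 RPM) and all 5 were lower than in Slc29a3-/- Tlr7-/- (70.9 to 119 RPM). All 3 NK cell genes and all 3 T cell genes fell against WT, with summed levels of 17.2 to 33.8 RPM against 92.1 to 389 RPM and of 1.59 to 6.96 RPM against 11.9 to 82.3 RPM. Both basophil and mast cell genes fell (1.5 to 3.49 RPM against 2.26 to 14.6 RPM), 1 B cell gene of 1 tested fell (summed level 13.9 to 20.7 RPM against 29 to 38.2 RPM), and of 2 eosinophil genes tested 1 rose and 1 fell. Of 3 red pulp macrophage genes 1 fell, and the erythroid sum stayed at 0.555 to 3.1 RPM against 1.18 to 1.79 RPM. In Ly6Clow the erythroid sum was 34 to 39.6 RPM in Slc29a3-/- against 0.561 to 4.98 RPM in WT, with both tested genes called. WT replicate 4 stood apart in Ly6Chi. It read 6768 RPM for the Ly6Chi monocyte sum (other WT libraries 2588 to 3212) and 1054 RPM for the Ly6Clow monocyte sum (2366 to 2440.1). It also read 63.8 RPM for the dendritic cell sum (121 to 124) and 92.1 for NK cells (344 to 389). For T cells it read 11.9 (74.9 to 82.3) and for basophils and mast cells 2.26 (10.9 to 14.6), the last inside the Slc29a3-/- range. Against it alone, 2 of the 5 dendritic cell calls held and none of the NK, T, basophil and mast cell calls (Cpa3 no longer passed the filter), and in Slc29a3-/- Tlr7-/- the NK sum ran from 5.2 to 578 RPM. The part of these cells in the S100 values was not tested.

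In Slc29a3-/- Tlr7-/- Ly6Chi replicate 2, S100a8 was at 587 RPM and S100a9 at 5048 RPM, a ratio of 8.59 where the other Ly6Chi libraries lay between 1.71 and 3.28. In Slc29a3-/- Tlr7-/- Ly6Clow replicate 4 the ratio was 27, from 4 reads of S100a8 and 108 reads of S100a9.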
